A study of Danio rerio with 16 samples.

Results

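Zebrafish embryos labelled as CRISPR/Cas9 knockouts of both hnf4a and hnf4b were followed from 34 to 48 hours post-fertilisation (hpf) by RNA sequencing of whole embryos. The comparison takes every gene in the 8 knockout libraries of a series of 16, with 4 libraries at 34 hpf and 4 at 48 hpf. The other 8 libraries, 4 at each stage, came from siblings labelled as untreated and serve here as the reference for the stage change. The mutant alleles, the genotypes pooled among the siblings, the number of embryos in a library and the clutches are not stated in the labels, so a p-value speaks only of how these libraries vary. The batch label of the series divides the libraries exactly as stage does, so stage and batch cannot be told apart.

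Hnf4 proteins are nuclear receptors that bind DNA constantly and drive genes of lipid handling and plasma protein secretion. In zebrafish embryos they are known from the yolk syncytial layer, which repackages yolk lipid into lipoproteins, and from the liver, gut and kidney. Over the stages sampled here the lens and retina differentiate, neurons connect, cartilage and fins form, larval muscle replaces embryonic isoforms, and the hatching gland completes its work. RNA of a whole embryo mixes all of these tissues, and fewer cells of a type cannot be told apart from less RNA per cell.

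The knockout libraries held between 34588058 and 41000857 counts at 34 hpf and between 40677285 and 43194625 counts at 48 hpf. Of 36109 gene symbols, 24084 had enough counts to be tested. The first principal component of the knockout libraries carried 39.1% of the variance and separated 34 from 48 hpf. The next carried 19.6% and parted replicates 1 and 2 from 3 and 4 at 34 hpf. Replicate 4 at 34 hpf stood farthest out, with ribosomal protein genes taking 9.01% of its counts against 6.93%, 7.36% and 8.03% in the other 3. Levels below are CPM, counts scaled to a fixed library total, on library sizes scaled by edgeR's TMM method. Differences are log2 fold changes, tested with edgeR's quasi-likelihood F test. The ± after a log2 fold change is an approximate standard error. It is the absolute log2 fold change divided by the square root of that test's F statistic.

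Transcripts of the targeted genes stayed measurable and their stage difference was not called. For hnf4a the 4 libraries stood at 10.4, 18.4, 12.6 and 7.08 CPM at 34 hpf and at 6.04, 12.9, 13.4 and 11.8 CPM at 48 hpf. The groups overlapped, and the log2 fold change was -0.13 ± 0.27 (edgeR adjusted p = 0.758). For hnf4b the means were 2.22 ± 0.96 and 1.44 ± 0.46 CPM (SD, n = 4), with adjusted p = 0.38 from edgeR. The related hnf4g stood at 0.60 ± 0.18 and 1 ± 0.33 CPM (edgeR adjusted p = 0.249). Sibling means of hnf4a were 12.8 and 12.3 CPM, so the RNA level does not check the genotype label.

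Knockout embryos changed broadly between the stages. With an adjusted p (Benjamini-Hochberg, all tested genes) under 0.05, 3745 genes (15.5%) rose and 2921 (12.1%) fell. Of these, 1530 (6.35%) rose by more than 2-fold and 410 (1.7%) fell by more than 2-fold. The median log2 fold change over all genes was -0.02. In siblings 4400 genes rose (18.3%) and 3771 fell (15.7%), 8.64% and 2.59% of all by more than 2-fold. Fitted on the libraries of each genotype alone, 2753 genes rose and 1705 fell in knockouts, and 5307 and 4564 did in siblings.

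Most of the genes that moved in the knockouts moved the same way in siblings. The libraries compared are not shared, but the filter, scaling and spread behind both sets of calls came from the same model of all 16 libraries. Among genes that rose in knockouts, 3114 also rose in siblings, which is 83.2% of the knockout list and 70.8% of the sibling list. Among genes that fell, 2294 also fell in siblings, 78.5% and 60.8% of each list. Another 7 genes that rose in knockouts fell in siblings, and 2 did the reverse. Across the 24084 genes the log2 fold changes of the genotypes correlated with Pearson's r = 0.76 and Spearman's rho = 0.75, as a description over genes that are not independent replicates. Among the 6666 genes called in knockouts the median absolute log2 fold change was 0.70 in knockouts and 0.73 in siblings. Among the 8171 called in siblings it was 0.54 in knockouts and 0.73 in siblings, and 80.9% of those genes had the smaller change in knockouts. Each set was chosen on the calls of 1 genotype. Over all tested genes 58.7% had the smaller change in knockouts.

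**Figure D1:**
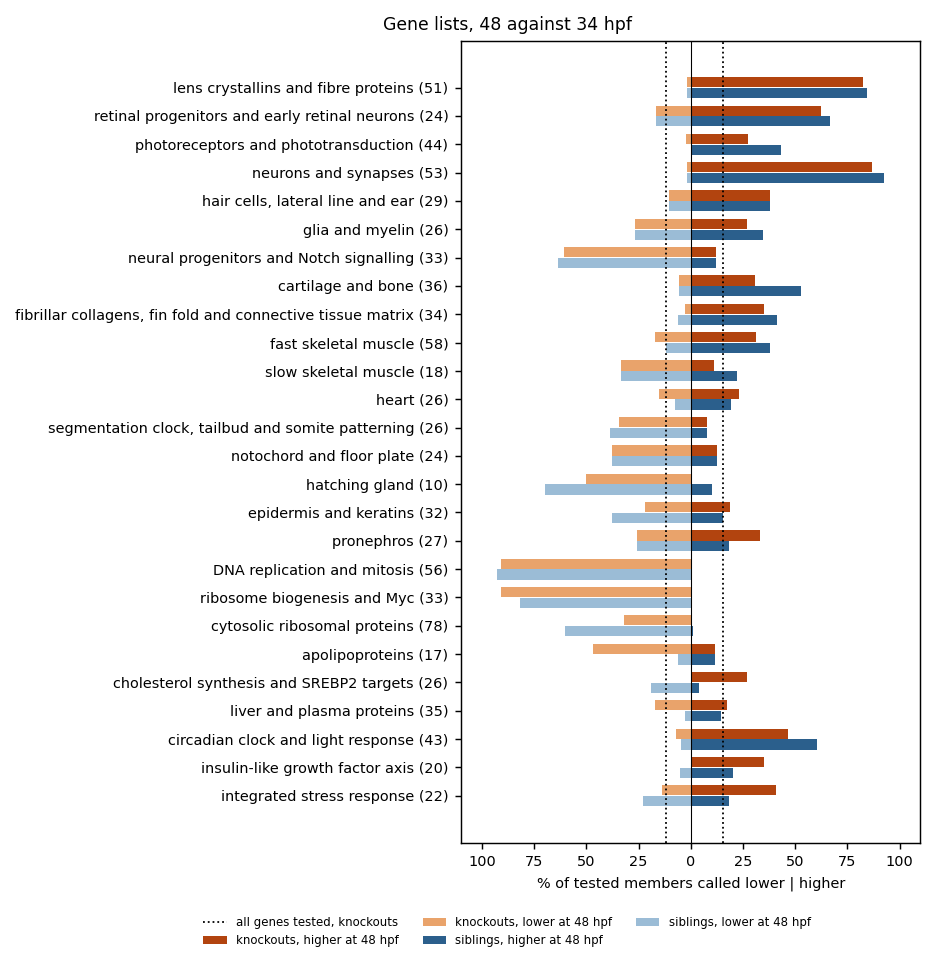
Share of each gene list (tested members in brackets) called lower (left) or higher (right) at 48 than at 34 hpf, in knockouts (orange and brown) and siblings (blue), with dotted lines at the 12.1% and 15.5% of all tested genes called lower and higher in knockouts. Lens, neuronal and retinal lists lie to the right and replication, ribosome biogenesis and neural progenitor lists to the left in both genotypes. Of 17 apolipoproteins 8 fell in knockouts and 1 in siblings, and none was called in the difference between genotypes.

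The eye gave some of the largest rises. Of 51 tested lens genes, out of 66 in the table, 42 rose and 1 fell in knockouts, with a median log2 fold change of 2.08, where 15.5% of all genes rose. Siblings gave 43 and 1. The lens genes together took 0.176, 0.223, 0.214 and 0.297% of the counts at 34 hpf and 0.654, 0.829, 0.628 and 0.660% at 48 hpf, without overlap.

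Lens fibre cells fill with crystallins, the proteins that make the lens refract. The crystallin crygm2d4 stood at 20.3, 27.0, 22.8 and 35.9 CPM at 34 hpf and at 182, 200, 147 and 163 CPM at 48 hpf. Every library of the later stage lay far above every earlier one, a log2 fold change of 2.71 ± 0.18 (edgeR adjusted p = 3.53e-08). Its relatives crygm2d15 (4.49 ± 0.36) and crygm2d16 (4.38 ± 0.28) rose further from lower levels, and crygmx rose by 1.77 ± 0.11 on the log2 scale. For crygm2d15 the value was 5.19 without replicate 4 of 34 hpf, which alone stood at 5.28 CPM against 1.31 to 1.71 CPM. The gamma M crystallins are near-identical copies, so the share of each copy is uncertain. The lens protein gene lgsn (lengsin) rose from 0.80 ± 0.62 to 20.6 ± 3.26 CPM (SD, n = 4), a log2 fold change of 4.69 ± 0.37, or 5.31 without replicate 4 of 34 hpf.

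Photoreceptor regulators rose steeply while most of the phototransduction machinery had not been called. Transcripts of crx, a homeobox gene that specifies photoreceptors and pineal cells, were at 1.33, 1.93, 1.98 and 1.45 CPM at 34 hpf and at 33.1, 47.0, 25.1 and 22.8 CPM at 48 hpf. The gap gave a log2 fold change of 4.26 ± 0.29 (edgeR adjusted p = 4.21e-08). Its relative otx5 went from 2.66, 1.76, 2.83 and 2.68 CPM to 40.1, 55.1, 31.2 and 32.7 CPM, a log2 fold change of 4.00 ± 0.21 (edgeR adjusted p = 4.42e-09). The nuclear receptor gene nr2e3 rose from 0.61 ± 0.24 to 11.5 ± 3.01 CPM (SD, n = 4). The later-stage libraries of all 3 regulators lay above all earlier ones, which was a condition for counting among the largest rises.

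Of 44 tested photoreceptor genes, 12 rose and 1 fell in knockouts, with a median of 0.09 against -0.02 over all genes, and 19 rose and none fell in siblings. The single fall was called in 1 of the 8 fits with a knockout library left out, that without replicate 1 of 48 hpf. The gene pde6gb, for the inhibitory subunit of the phototransduction phosphodiesterase, rose from 4.42 ± 0.34 to 26.3 ± 6.64 CPM (SD, n = 4), a log2 fold change of 2.57 ± 0.18 (edgeR adjusted p = 4.98e-08). The arrestin gene sagb rose by 1.14 ± 0.30 on the log2 scale in knockouts and by 3.41 in siblings. The calcium sensor gene rcvrn2 was not called in knockouts, at 4.81 ± 1.41 and 5.02 ± 1.33 CPM (log2 fold change 0.06 ± 0.22, edgeR adjusted p = 0.876), and rose by 1.88 in siblings. For the visual cycle protein gene rlbp1a the log2 fold changes were 0.74 ± 0.16 and 1.92.

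Neural retina genes rose as a group, 15 of 24 rising and 4 falling, as 16 and 4 did in siblings. The homeobox gene six7, needed for cone opsin expression in zebrafish, stood at 0.14, 0.34, 0.40 and 0.27 CPM at 34 hpf. At 48 hpf it stood at 19.0, 15.5, 12.1 and 14.8 CPM, a log2 fold change of 5.72 ± 0.29 (edgeR adjusted p = 2.56e-09). The libraries of the stages did not overlap, which was a condition for counting among the largest rises. The ganglion cell factor gene pou4f2 rose from 5.27 ± 0.78 to 32.7 ± 8.04 CPM and the bipolar cell factor gene vsx1 from 5.55 ± 1.15 to 32.7 ± 9.61 CPM (SD, n = 4). The nuclear receptor gene rorb rose from 30.1 ± 5.58 to 109 ± 18.6 CPM.

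**Figure D2:**
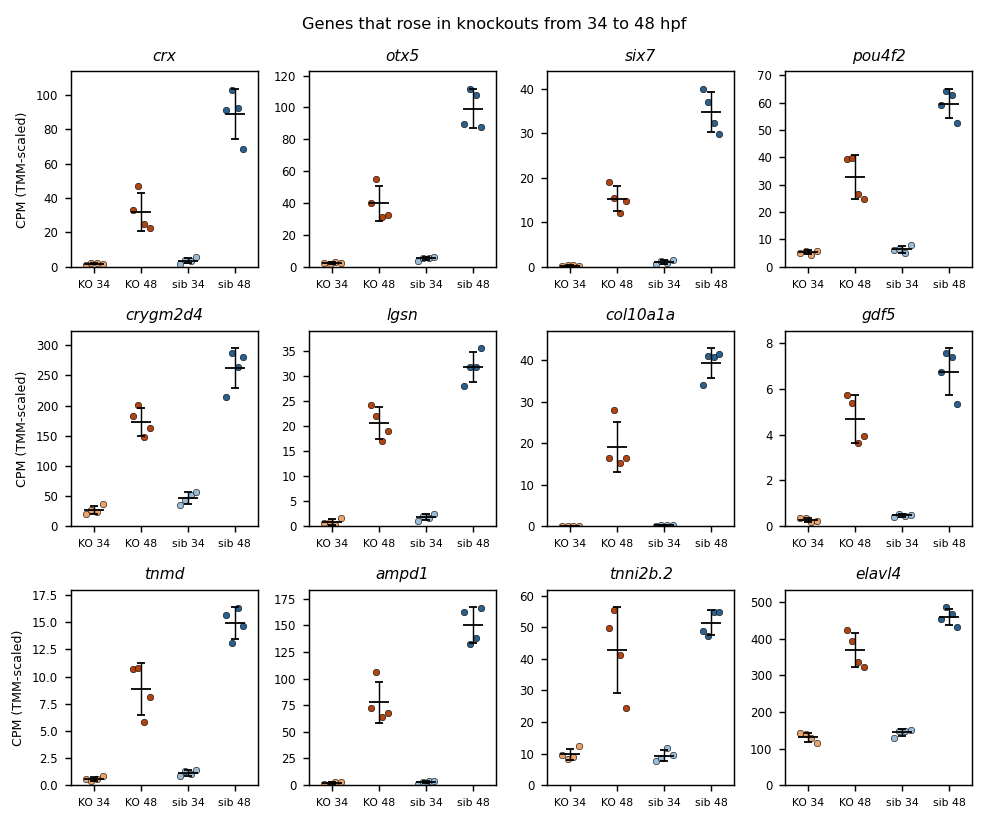
TMM-scaled CPM of 12 genes that rose in knockouts (orange, brown), with siblings in blue, 1 point per library and the mean ± SD of 4 as the black marks. In each panel all 4 knockout libraries of 48 hpf lie above all 4 of 34 hpf, as for crx at 22.8 to 47.0 CPM against 1.33 to 1.98 CPM. For genes counted among the largest rises, such as crx, this absence of overlap was a condition of entry and not a separate result.

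The nervous system gained transcripts of mature neurons and lost those of progenitors. Of 53 neuronal and synaptic genes, 46 rose and 1 fell (median 0.83), and siblings gave 49 and 1. The RNA-binding protein gene elavl4, a marker of differentiated neurons, stood at 142, 139, 128 and 115 CPM at 34 hpf and at 424, 394, 336 and 323 CPM at 48 hpf. The stages did not overlap, and the log2 fold change was 1.49 ± 0.10 (edgeR adjusted p = 2.51e-08). The GABA-synthesising enzyme gene gad2 rose from 26.6 ± 3.39 to 70.9 ± 5.57 CPM, the GABA transporter gene slc6a1b from 22.6 ± 2.47 to 64.0 ± 10 CPM, and the neuronal sodium pump gene atp1a3a from 89.2 ± 8.89 to 198 ± 14.2 CPM (SD, n = 4). The synaptic list took between 0.231 and 0.279% of the counts at 34 hpf and between 0.403 and 0.480% at 48 hpf.

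Of 33 neural progenitor and Notch pathway genes, 20 fell and 4 rose (median -0.44), beside 21 and 4 in siblings. SoxB1 factors keep neural cells in the progenitor state. Among them sox3 stood at 181, 183, 205 and 264 CPM at 34 hpf and at 89.7, 104.8, 101.1 and 103 CPM at 48 hpf, a log2 fold change of -1.06 ± 0.11 (edgeR adjusted p = 1.7e-06). The paralog sox19a fell from 201 ± 36.9 to 90.4 ± 11.6 CPM, and the Hairy-related gene her2 from 22.8 ± 2.44 to 6.91 ± 2.16 CPM (SD, n = 4). All 3 fell without overlap between the stages.

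Glial genes split, with 7 of 26 rising and 7 falling. Without replicate 3 of 34 hpf, 4 fell. The glutamate transporter gene slc1a2b rose from 104 ± 11.5 to 254 ± 24.8 CPM while slc1a3a, another glial glutamate transporter gene, fell from 178 ± 26.3 to 72.0 ± 8.91 CPM (SD, n = 4). Proteolipid gene plp1a fell from 369 ± 31.0 to 218 ± 27.2 CPM. The log2 fold changes were 1.28 ± 0.09, -1.31 ± 0.11 and -0.76 ± 0.09.

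In the ear and lateral line list 11 of 29 genes rose and 3 fell, with the same counts in siblings. The otolith matrix gene stm (starmaker) rose from 41.6 ± 8.29 to 74.1 ± 2.4 CPM and the hair cell calcium-binding gene s100t from 7.22 ± 2.05 to 16.3 ± 2.36 CPM (SD, n = 4). The proneural genes atoh1a and atoh1b, which start hair cell and cerebellar granule cell programmes, fell by 0.91 ± 0.12 and 0.73 ± 0.09 on the log2 scale.

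Skeletal and tendon genes included the largest fitted rise of all called genes. The collagen gene col10a1a, a marker of hypertrophic cartilage and forming bone, had 2 counts in the 4 libraries of 34 hpf and 3251 at 48 hpf. It stood at 0, 0, 0 and 0.0547 CPM and then at 16.4, 28.0, 15 and 16.4 CPM. Both counts came from replicate 4, and the scaled ratio was 1453 with a 95% counting interval of 402 to 12002. The interval covers counting error only.

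Of 36 cartilage and bone genes, 11 rose and 2 fell, beside 15.5% and 12.1% of all tested genes. In siblings 19 rose and 2 fell, and none of the 36 was called in the difference between genotypes. In knockouts none fell without replicate 3 of 34 hpf or replicate 1 of 48 hpf, and 1 fell in 5 of the other omissions. Collagen IX gene col9a1a rose from 22.8 ± 2.96 to 64.1 ± 9.97 CPM, matn3a, for the cartilage matrix protein matrilin, from 37.7 ± 4.21 to 92.1 ± 17.3 CPM, and the chondrocyte master regulator gene sox9a from 91.3 ± 14.7 to 147 ± 6.59 CPM (SD, n = 4). The joint morphogen gene gdf5 rose from 0.33, 0.34, 0.15 and 0.22 CPM to 5.73, 5.39, 3.64 and 3.95 CPM, a log2 fold change of 4.15 ± 0.26 (edgeR adjusted p = 1.73e-08). The stages did not overlap for any of these genes, and for gdf5 this was a condition for counting among the largest rises.

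Connective tissue genes gave 12 rises and 1 fall among 34. Tenomodulin, a tendon membrane protein, is encoded by tnmd, which went from 0.52, 0.40, 0.55 and 0.82 CPM to 10.7, 10.8, 5.79 and 8.10 CPM. Its log2 fold change was 3.94 ± 0.25 (edgeR adjusted p = 1.88e-08). The absence of overlap was a condition for counting among the largest rises. The fin fold gene and2, for an actinotrichia protein, rose from 123 ± 10.9 to 317 ± 56.3 CPM and the proteoglycan gene lum from 55.1 ± 2.28 to 99.3 ± 5.81 CPM (SD, n = 4). The fibrillar collagen gene col5a3a was the fall, from 42.9 ± 7.66 to 15.5 ± 3.05 CPM. Without replicate 4 of 34 hpf 4 genes of the list fell.

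Muscle exchanged isoforms. Among 58 fast muscle genes, 18 rose and 10 fell, and without replicate 4 of 48 hpf 6 fell. Fitted on the 8 knockout libraries alone, 10 rose and 5 fell. A pair of neighbouring fast troponin I genes moved in opposite directions. Copy tnni2b.1 stood at 211, 147, 307 and 303 CPM at 34 hpf and at 10.1, 14.4, 19.4 and 23.9 CPM at 48 hpf, a log2 fold change of -3.83 ± 0.31 (edgeR adjusted p = 2.01e-07). Copy tnni2b.2 rose from 9.46, 8.18, 8.98 and 12.2 CPM to 49.7, 55.6, 41.1 and 24.3 CPM, a log2 fold change of 2.13 ± 0.21 (edgeR adjusted p = 1.01e-06). Neither gene overlapped between the stages, which for tnni2b.1 was a condition for counting among the largest falls. The sibling log2 fold changes were -3.84 and 2.46.

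The AMP deaminase gene ampd1, an enzyme of muscle purine metabolism, stood at 0.95, 1.11, 3.08 and 2.95 CPM and then at 72.5, 106, 64.1 and 67.4 CPM. That jump was a log2 fold change of 5.26 ± 0.38 (edgeR adjusted p = 5.43e-08). The calcium buffer gene pvalb2 rose from 1306 ± 175 to 3148 ± 352 CPM (SD, n = 4). In the slow muscle list 2 of 18 genes rose and 6 fell. There the troponin T gene tnnt2e rose from 33.0 ± 4.68 to 69.7 ± 11.2 CPM and the myosin light chain gene myl13 fell from 450 ± 170 to 250 ± 10.8 CPM. Another troponin T gene, tnnt2c, was among the largest falls, from 169 ± 34.1 to 40.4 ± 8.13 CPM.

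Heart genes gave 6 rises and 4 falls among 26, where 15.5% of all tested genes rose and 12.1% fell. The falls were 2 without replicate 3 of 34 hpf and without replicate 2 or 3 of 48 hpf. The natriuretic peptide gene nppa, made by working chamber muscle, stood at 20.9, 11.4, 4.19 and 7.49 CPM at 34 hpf and at 46.1, 39.3, 27.1 and 35.3 CPM at 48 hpf. It rose by 1.75 ± 0.40 on the log2 scale (edgeR adjusted p = 0.00339). The flow-responsive factor gene klf2a rose from 6.82 ± 0.35 to 18.5 ± 4.98 CPM and the cardiac myosin gene myh7l from 31.7 ± 6.16 to 50.9 ± 7.31 CPM (SD, n = 4). The LIM-domain protein gene fhl2b rose from 0.30 ± 0.18 to 6.13 ± 1.11 CPM.

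Proliferation genes fell almost as a block. Of 56 replication and mitosis genes none rose and 51 fell (median -0.77), where 12.1% of all genes fell, and 52 fell in siblings. The list took 0.811, 0.791, 0.720 and 0.798% of the counts at 34 hpf and 0.416, 0.519, 0.556 and 0.523% at 48 hpf. The helicase subunit gene mcm3 stood at 146, 168, 155 and 150 CPM and then at 68.7, 79.3, 91.6 and 91.8 CPM, a log2 fold change of -0.90 ± 0.09 (edgeR adjusted p = 1.34e-06). The replication licensing gene cdc6 fell by 1.02 ± 0.09, the chromatin assembly gene chaf1b by 0.89 ± 0.08 and the condensin gene ncapd2 by 0.89 ± 0.09 on the log2 scale. None of the 4 genes overlapped between the stages.

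Transcripts of ribosome biogenesis genes fell alongside. Of 33 ribosome biogenesis and Myc genes, 30 fell and none rose (median -0.55), and 27 fell in siblings. The transcription factor gene mycn fell from 167, 145, 155 and 154 CPM to 85.9, 99.0, 89.0 and 95.7 CPM, a log2 fold change of -0.75 ± 0.08 (edgeR adjusted p = 1.85e-06). The nucleolar methyltransferase gene fbl fell from 177 ± 21.8 to 115 ± 4.29 CPM (SD, n = 4).

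The count for the cytosolic ribosomal proteins themselves rested on single libraries. Of 78 genes, 25 fell and none rose, while 47 fell and 1 rose in siblings. Without replicate 1 of 34 hpf 51 fell, and without replicate 3 or 4 of that stage 9 or 10 fell. Leaving out replicates 1, 2, 3 or 4 of 48 hpf left 6, 10, 15 and 11. Fitted on the 8 knockout libraries alone, 0 of the 78 were called. For rps9 the 4 libraries stood at 1208, 1420, 1643 and 2358 CPM at 34 hpf, with replicate 4 highest, and between 1105 and 1206 CPM at 48 hpf. The log2 fold change was -0.53 ± 0.14 (edgeR adjusted p = 0.00942, or 0.0697 on the knockout libraries alone).

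Axial patterning genes declined in part. In the segmentation and tailbud list 9 of 26 genes fell and 2 rose, and in the notochord and floor plate list 9 of 24 fell and 3 rose. The Notch ligand gene dld fell from 140 ± 5.36 to 82.5 ± 8.88 CPM and the Notch glycosyltransferase gene lfng from 281 ± 9.91 to 188 ± 15.4 CPM (SD, n = 4). The notochord factor gene tbxta, which is on both lists, fell from 28.7 ± 1.17 to 17.8 ± 2.35 CPM, and the sheath collagen gene col8a1a from 111 ± 18.8 to 65.6 ± 9.37 CPM. The protocadherin gene pcdh8 rose from 2.95 ± 0.90 to 12.8 ± 1.6 CPM, and the floor plate guidance gene ntn1b from 38.6 ± 5.98 to 66.1 ± 1.75 CPM. Protogenin b, an immunoglobulin-family membrane protein, is encoded by prtgb, which fell from 103 ± 38.1 to 12.9 ± 4.86 CPM.

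Hox genes set position along the body axis, and 6 of 49 rose and 7 fell in knockouts, shares close to the 15.5% and 12.1% of all tested genes. The genes hoxc4a and hoxc5a rose by 0.64 ± 0.08 and 0.79 ± 0.12 on the log2 scale. Paralogs hoxb1a and hoxb1b fell by 1.34 ± 0.29 and 0.63 ± 0.10. These 4 did not overlap between the stages, and sibling log2 fold changes were 0.58, 1.1, -1.59 and -0.60.

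The hatching gland secretes the proteases that dissolve the egg envelope. Of its 10 tested genes 5 fell and none rose in knockouts, while 7 fell and 1 rose in siblings. The hatching enzyme gene he1.1 stood at 2376, 2636, 2556 and 3030 CPM at 34 hpf and at 1048, 396, 376 and 549 CPM at 48 hpf, with replicate 1 of 48 hpf highest at that stage. Its log2 fold change was -2.16 ± 0.30 (edgeR adjusted p = 4.13e-05). The cathepsin gene ctslb stood at 312, 366, 250 and 277 CPM and then at 34.7, 8.44, 7.81 and 6.79 CPM, a log2 fold change of -4.38 ± 0.46, or -5.29 without replicate 1 of 48 hpf. In both genes the stages did not overlap, a condition for counting among the largest falls, and the same library kept the highest level. The related gene he1.3 fell from 5.27 ± 2.89 to 0.28 ± 0.17 CPM (SD, n = 4). Reads of the near-identical he1 copies may be divided among them.

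In the skin 6 of 32 keratin and epidermal genes rose and 7 fell, beside 15.5% and 12.1% of all tested genes. Keratin genes krtt1c19e and krt91 rose from 332 ± 94.2 to 1046 ± 219 CPM and from 298 ± 31.0 to 749 ± 177 CPM (SD, n = 4), and krt92 fell from 117 ± 20.5 to 41.4 ± 5.85 CPM. The annexin gene anxa1c fell from 352 ± 48.3 to 152 ± 15.5 CPM.

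Ionocytes are the skin and gill cells that exchange ions and ammonia with the water. Of 22 ionocyte genes, 5 rose, 1 fell and 16 were not called (median -0.05), beside 15.5% rising and 12.1% falling among all tested genes. There were 4 falls without replicate 4 of 34 hpf and 2 without replicate 1 or 3 of 34 hpf or replicate 1 of 48 hpf. The ammonia transporter gene rhbg stood at 5.38, 5.62, 5.87 and 5.69 CPM at 34 hpf and at 42.2, 62.6, 56.1 and 48.7 CPM at 48 hpf. The log2 fold change was 3.21 ± 0.14 (edgeR adjusted p = 5.42e-10). A second ammonia transporter gene, rhcga, was uneven at 48 hpf, with 2.39, 12.9, 18.9 and 0.56 CPM after 0.33, 0.23, 0.05 and 0.11 CPM. Its log2 fold change of 5.56 ± 0.99 had adjusted p = 0.000434 in edgeR and 0.133 in limma-voom, and was 4.85 without replicate 3 of 48 hpf. The sodium pump gene atp1a1a.2 was the fall, from 201 ± 18.2 to 131 ± 9.94 CPM (SD, n = 4).

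Pigment and kidney genes moved in both directions. Among iridophore and xanthophore genes 4 of 27 rose and 5 fell, beside 15.5% and 12.1% of all tested genes. The iridophore purine gene pnp4a rose from 16.2 ± 2.46 to 36 ± 5.76 CPM and the glycoprotein gene gpnmb from 18.7 ± 3.34 to 57.6 ± 3.42 CPM (SD, n = 4). The pteridine synthesis gene gch2 fell from 532 ± 62.8 to 366 ± 48.2 CPM. The melanosome gene pmelb rose by 0.49 ± 0.11 on the log2 scale, the single rise among 17 melanophore genes, or 1 of 2 without replicate 3 of 34 hpf. The 2 melanophore genes that fell, named after their values were seen, were the master regulator gene mitfa (-0.43 ± 0.15) and the melanin synthesis gene dct (-0.38 ± 0.12). Neither was called without replicate 3 or 4 of 34 hpf or replicate 2 or 3 of 48 hpf, 1 fell without replicate 2 of 34 hpf or replicate 1 or 4 of 48 hpf, and neither was called on the knockout libraries alone. The endothelin receptor gene ednrab fell by 2.28 ± 0.33, as it did in siblings. Of 27 pronephros genes 9 rose and 7 fell, with lhx1a rising from 36.4 ± 3.36 to 112 ± 14.5 CPM and pax8 from 5.34 ± 0.34 to 12.9 ± 1.97 CPM. Over the fits with a knockout library left out, 6 to 8 pronephros genes rose and 5 to 7 fell. The pronephros gene cdh17, which fell, is described below, and the other falls are not named. The factor gene tfap2b, on the neural crest list, rose from 24.7 ± 4.39 to 62.8 ± 8.82 CPM.

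Vessel genes were called about as often as genes in general. Of 37 endothelial genes 5 rose and 4 fell, beside 15.5% and 12.1% of all tested genes, with 8 rising without replicate 1 of 34 hpf, 2 rising without replicate 3 of 48 hpf and 2 falling without replicate 1 of 48 hpf. The arterial Notch ligand gene dll4 rose from 8.30 ± 0.94 to 13.9 ± 1.07 CPM (SD, n = 4), and the early endothelial factor gene etv2 fell from 9.50 ± 1.83 to 6.32 ± 0.75 CPM. The chemokine receptor gene cxcr4a fell by 0.78 ± 0.15 on the log2 scale.

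Globin and haem genes varied widely among replicates. Together they took 0.236, 0.474, 0.159 and 0.109% of the counts at 34 hpf and 0.632, 0.554, 0.501 and 0.12% at 48 hpf. Each same-numbered knockout library was higher at 48 hpf, and replicate 4 was the lowest library in all 4 groups, siblings included. Of the 34 tested genes 1 rose and 2 fell in knockouts (median -0.06), beside 15.5% and 12.1% of all tested genes. In siblings 1 rose and 6 fell. The embryonic globin gene hbbe2 stood at 9.13, 11.9, 4.34 and 4.46 CPM and then at 68.2, 67.0, 60.5 and 8.10 CPM. Replicate 4 of 48 hpf lay within the earlier range, and the log2 fold change of 2.77 ± 0.72 had adjusted p = 0.00766 in edgeR and 0.053 in limma-voom. Without replicate 2 of 34 hpf or replicate 4 of 48 hpf, 3 genes of the list rose. The haem synthesis gene cpox fell from 28.4 ± 10.6 to 13.3 ± 1.23 CPM (SD, n = 4).

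Inflammatory genes rested on a single library. Of 29 leukocyte genes 3 rose and 1 fell, beside 15.5% and 12.1% of all tested genes. Without replicate 4 of 48 hpf 5 rose, and none did without replicate 1 of 48 hpf. The cytokine gene il1b stood at 23.5 CPM in that library and at 0.29, 0.36 and 0.09 CPM in the other 3, after 0 to 0.30 CPM at 34 hpf. The collagenase gene mmp13a stood at 95.4 CPM there and at 7.33, 5.41 and 6.11 CPM in the others, after 3.04 to 6.97 CPM. Without that library the log2 fold changes were 0.47 (edgeR adjusted p = 0.768) and 0.42 (edgeR adjusted p = 0.31), in place of 5.05 ± 1.41 and 2.59 ± 0.73.

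Yolk and plasma protein genes fell in part, and afp4 and tfa were among the 15 largest falls. The gene afp4, for a type IV antifreeze-like apolipoprotein of the yolk syncytial layer, stood at 129, 148, 133 and 389 CPM at 34 hpf and at 4.41, 13.7, 20.1 and 4.96 CPM at 48 hpf. It fell by 4.21 ± 0.48 on the log2 scale (edgeR adjusted p = 4.71e-06) and by 1.80 in siblings. The iron carrier gene tfa (transferrin) stood at 323, 736, 867 and 1260 CPM and then at 79.0, 265, 102 and 62.4 CPM. Its log2 fold change was -2.65 ± 0.43 (edgeR adjusted p = 0.000185), or -3.30 without replicate 2 of 48 hpf, and siblings gave -0.67 (edgeR adjusted p = 0.23). For neither gene did the test of the difference from siblings pass, with adjusted p = 0.157 and 0.287 in edgeR.

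Of 17 apolipoprotein genes, 8 fell and 2 rose in knockouts (median -1.12), and 1 fell and 2 rose in siblings. Without replicate 4 of 34 hpf 3 fell, without replicate 1 of 48 hpf 4, without replicate 4 of 48 hpf 5, and without replicate 1 of 34 hpf 12. None of the 17 was called in the difference between genotypes. The structural protein of yolk lipoproteins is encoded by apobb.1, which stood at 626, 1373, 1154 and 2580 CPM and then at 200, 419, 709 and 545 CPM. Those ranges overlapped, and the log2 fold change was -1.61 ± 0.35 (edgeR adjusted p = 0.00238). Its sibling levels were several times higher, at 8616 and 5563 CPM.

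High-density lipoprotein gene apoa1b stood at 21.4, 73.8, 17.1 and 296 CPM and then at 10.4, 23.1, 23.6 and 8.94 CPM, a log2 fold change of -2.63 ± 0.66, or -1.18 without replicate 4 of 34 hpf. In limma-voom its adjusted p was 0.0565. The apolipoprotein gene apoa4b.1 was near 0 in 3 of the 4 libraries of 34 hpf and stood at 149 CPM in replicate 4. Its log2 fold change of -7.05 ± 1.77 came to 0.70 (edgeR adjusted p = 0.374) without that library. The lipocalin gene apoda.1, an apolipoprotein of nerve and other tissues, rose from 4.04 ± 1.54 to 13.1 ± 3.06 CPM (SD, n = 4).

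**Figure D3:**
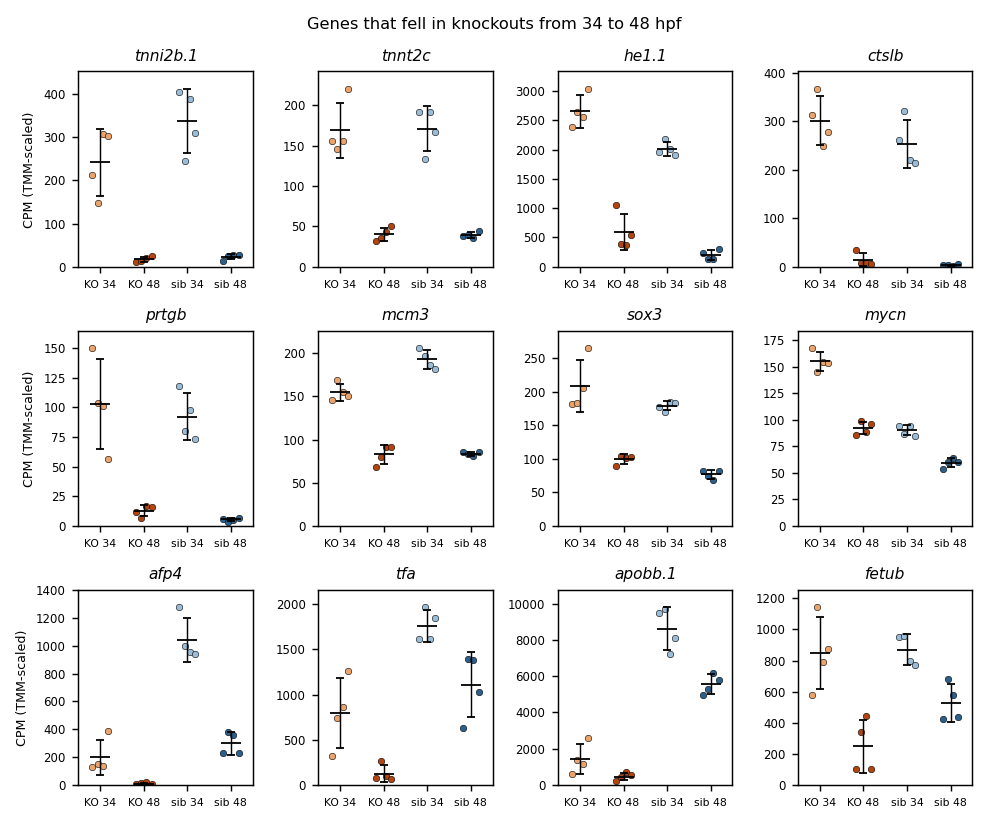
TMM-scaled CPM of 12 genes that fell in knockouts (orange, brown), with siblings in blue, 1 point per library and the mean ± SD of 4 as the black marks. The muscle, hatching gland, replication and progenitor genes fell in both genotypes. For tfa the range went from 323 to 1260 CPM to 62.4 to 265 CPM in knockouts, and siblings had edgeR adjusted p = 0.23. The test of its difference between genotypes did not pass (edgeR adjusted p = 0.287).

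Among liver and plasma protein genes 6 of 35 rose and 6 fell, where 15.5% and 12.1% of all tested genes did. On the knockout libraries alone 2 rose and 5 fell, and 3 rose without replicate 1 of 34 hpf or replicate 2 or 3 of 48 hpf. Fetuin gene fetub stood at 579, 1141, 794 and 877 CPM and then at 106, 343, 442 and 104 CPM, a log2 fold change of -1.77 ± 0.37 (edgeR adjusted p = 0.00178). Those libraries did not overlap. The urate oxidase gene uox fell from 1.04 ± 0.49 to 0.13 ± 0.04 CPM, while hgd, of tyrosine breakdown, rose from 9.75 ± 1.87 to 19.3 ± 2.45 CPM (SD, n = 4). Of 41 coagulation and complement genes 4 rose and 3 fell, where 15.5% and 12.1% of all tested genes did. Over the fits with a knockout library left out, 3 to 6 rose and 1 to 6 fell. Complement protease gene masp1 rose from 9.81 ± 2.94 to 33.1 ± 4.79 CPM. Another, masp2, fell by 2.11 ± 0.47 on the log2 scale, -1.44 without replicate 4 of 34 hpf. The terminal complement gene c7a rose by 0.63 ± 0.17.

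Gut genes gave 6 rises and 4 falls among 28, as in siblings, where 15.5% and 12.1% of all tested genes rose and fell in knockouts. The list took a mean of 0.0205% of the knockout counts at 34 hpf and 0.0200% at 48 hpf. The intestinal homeobox gene cdx1b rose from 1.28 ± 0.44 to 4.56 ± 0.43 CPM and the claudin gene cldn15la from 0.57 ± 0.20 to 2.90 ± 0.55 CPM (SD, n = 4). The cadherin gene cdh17 fell by 0.30 on the log2 scale, and the other falls are not named here. Of 21 endocrine pancreas genes 7 rose and 1 fell, with isl1 and neurod1, which neurons express too, rising by 0.75 ± 0.08 and 1.1 ± 0.14 on the log2 scale and the zinc transporter gene slc30a8 falling by 0.81 ± 0.15.

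Sterol synthesis genes rose in part. Of 26 members 7 rose and none fell in knockouts, beside 15.5% and 12.1% of all tested genes. In siblings 1 rose and 5 fell, and none of the 26 was called in the difference between genotypes. In knockouts 4 rose without replicate 1 of 48 hpf, 4 on the knockout libraries alone and 9 without replicate 2 of 48 hpf. The rate-limiting enzyme gene hmgcra stood at 15.9, 12, 12.8 and 9.54 CPM at 34 hpf and at 87.8, 15.5, 24.8 and 33.5 CPM at 48 hpf, with replicate 1 highest and replicate 2 within the earlier range. Its log2 fold change was 1.69 ± 0.37 (edgeR adjusted p = 0.00254), or 0.98 without that replicate 1. The sterol oxidase gene msmo1 rose by 1.72 ± 0.31, the epoxidase gene sqlea by 0.79 ± 0.20 and the demethylase gene cyp51 by 0.87 ± 0.22, the last with adjusted p = 0.051 on the knockout libraries alone. None of these 4 passed the test of the difference from siblings (edgeR adjusted p 0.41 to 0.928).

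Lipid receptor and acyl-chain genes rose in part. The lipoprotein receptor gene ldlra rose from 1.13 ± 0.40 to 10.7 ± 7.25 CPM, with its relatives lrp8 from 31.9 ± 3.73 to 55.2 ± 2.71 CPM and vldlr from 28.8 ± 1.15 to 46.1 ± 4.87 CPM (SD, n = 4). The high-density lipoprotein receptor gene scarb1 fell from 15.7 ± 1.33 to 9.17 ± 1.22 CPM. Of 24 lipase and receptor genes 6 rose and 2 fell, and 4 rose without replicate 4 of 34 hpf or replicate 1 of 48 hpf. Of 20 fatty acid synthesis genes 7 rose and 2 fell, among them the elongase gene elovl6 (0.80 ± 0.11), the desaturase genes scdb (1.06 ± 0.16) and fads2 (1.16 ± 0.22). In the lipoprotein assembly list 5 of 22 fell and 3 rose (median -0.07), where 12.1% and 15.5% of all tested genes did. Without replicate 4 of 34 hpf or replicate 1 of 48 hpf 2 of the list fell. Of the 3 that rose, the acyltransferase gene mogat2 went from 19.7 ± 1.79 to 41.0 ± 5.84 CPM and tm6sf2 from 2.86 ± 0.44 to 7.81 ± 1.45 CPM. The 5 that fell are not named here.

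Fuel use genes were mostly uncalled, as were tested genes in general, of which 15.5% rose and 12.1% fell. Of 32 fatty acid oxidation genes 4 rose and 2 fell, and 8 fell without replicate 1 of 34 hpf, where 2 rose, as 2 did without replicate 3 of 48 hpf. The receptor gene pparab, a regulator of fatty acid oxidation, rose from 11.4 ± 0.61 to 20 ± 1.80 CPM and the kinase gene pdk2a from 38.8 ± 7.16 to 56.5 ± 7.2 CPM (SD, n = 4). Of 83 nuclear respiratory chain genes 1 rose, cox4i2, from 3.93 ± 0.57 to 6.34 ± 0.86 CPM, and none fell. Without replicate 1 of 34 hpf 19 fell, and without replicate 4 of 34 hpf 3 rose. None of the 12 mitochondrial messages was called.

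Clock genes rose as a group, 20 of 43 rising and 3 falling (median 0.47), beside 26 and 2 in siblings. The light cycle and the time of collection are not stated in the labels. The repressor gene nr1d1 stood at 0.17, 0.17, 0.05 and 0.05 CPM at 34 hpf and at 1.53, 3.79, 5.39 and 2.64 CPM at 48 hpf, a log2 fold change of 4.88 ± 0.52 (edgeR adjusted p = 2.84e-06). Period gene per3 rose from 19.7 ± 3.56 to 47.0 ± 5.10 CPM, nr1d2b from 25.4 ± 3.65 to 56.6 ± 7.03 CPM and roraa, for a nuclear receptor of the clock and the nervous system, from 12.5 ± 2.07 to 45.3 ± 10.1 CPM (SD, n = 4). Each of the 4 rose without overlap.

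Hormone and growth factor genes rose in part. Among hormone axis genes 8 of 34 rose and 1 fell, beside 15.5% and 12.1% of all tested genes. In siblings 9 rose and 5 fell. Over the fits with a knockout library left out, 6 to 9 rose and 0 to 2 fell in knockouts. The factor gene klf9, a target of thyroid and glucocorticoid receptors, stood at 0.62, 1.53, 0.40 and 0.88 CPM and then at 3.16, 10.8, 9.34 and 6.5 CPM. Its log2 fold change was 3.13 ± 0.41 (edgeR adjusted p = 1.93e-05), and 0.86 in siblings. The glucocorticoid-induced chaperone gene fkbp5 stood at 8.04, 16.6, 6.12 and 22.0 CPM and then at 21.3, 96.0, 53.4 and 31.8 CPM, overlapping, with a log2 fold change of 1.94 ± 0.49 (edgeR adjusted p = 0.00643). The difference from siblings did not pass for either (edgeR adjusted p = 0.141 and 0.425). The thyroid hormone receptor gene thrb rose by 0.74 ± 0.11, and the pituitary hormone gene pomca by 2.89 ± 0.55 from under 0.1 CPM.

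Of 20 insulin-like growth factor genes 7 rose and none fell, beside 15.5% and 12.1% of all tested genes. In siblings 4 of them rose and 1 fell. The growth factor gene igf2b rose from 18.3 ± 2.25 to 26.7 ± 0.86 CPM and the binding protein gene igfbp6b from 0.63 ± 0.14 to 2.21 ± 0.86 CPM (SD, n = 4). Binding protein gene igfbp1a, which rises in fasting and hypoxia, stood at 22.5, 16.5, 21.3 and 17.2 CPM and then at 75.3, 27.9, 26.7 and 38.6 CPM, a log2 fold change of 1.12 ± 0.25 (edgeR adjusted p = 0.00274). Replicate 1 of 48 hpf was the highest, as for il1b, hmgcra and he1.1.

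Of 22 integrated stress response genes 9 rose and 3 fell in knockouts, and 4 and 5 did in siblings. Of all tested genes 15.5% rose and 12.1% fell in knockouts, and none of the 22 was called in the difference between genotypes. The factor gene ddit3 rose from 36.6 ± 3.46 to 91.5 ± 12.3 CPM, the amino acid transporter genes slc7a5 from 78.2 ± 5.25 to 136 ± 15.9 CPM and slc3a2b from 66.0 ± 9.76 to 94.9 ± 10 CPM (SD, n = 4). The mitochondrial enzyme gene pck2 fell from 63.4 ± 10.6 to 40.4 ± 4.72 CPM. Over the fits with a knockout library left out, 6 to 8 of the list rose and 1 to 4 fell, with 1 fall without replicate 4 of 34 hpf. On the knockout libraries alone 4 rose and 1 fell.

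Other genes among the 15 largest rises and falls belonged to no list. The GTPase gene arf4b stood at 0.76, 1.39, 0.45 and 0.60 CPM and then at 11.6, 40.1, 24.4 and 8.40 CPM, and the superoxide-producing oxidase gene nox5 went from 0.16 ± 0.14 to 4.1 ± 1.59 CPM (SD, n = 4), with a log2 fold change of 5.26 without replicate 3 of 34 hpf in place of 4.60 ± 0.59. Sibling means of both were under 0.3 CPM at each stage, and the difference did not pass (edgeR adjusted p = 0.268 and 0.159). The lysosomal enzyme genes ctsll and acp5a were among the largest falls. For ctsll the means were 39.3 ± 16.3 and 2.21 ± 2.46 CPM (-5.26 without replicate 3 of 48 hpf in place of -4.14 ± 0.56). For acp5a they were 104 ± 61.7 and 19.9 ± 12.7 CPM. The selenoprotein gene fep15, the cytochrome P450 genes cyp4t8 and cyp2aa9 and the microRNA gene mir219-3 fell by 3.01 ± 0.46, 2.97 ± 0.18, 2.32 ± 0.53 and 2.82 ± 0.30 on the log2 scale. For cyp2aa9 the value was -2.97 without replicate 3 of 48 hpf. Reads counted to the microRNA gene come from its precursor or an overlapping transcript and do not measure the mature form.

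**Figure D4:**
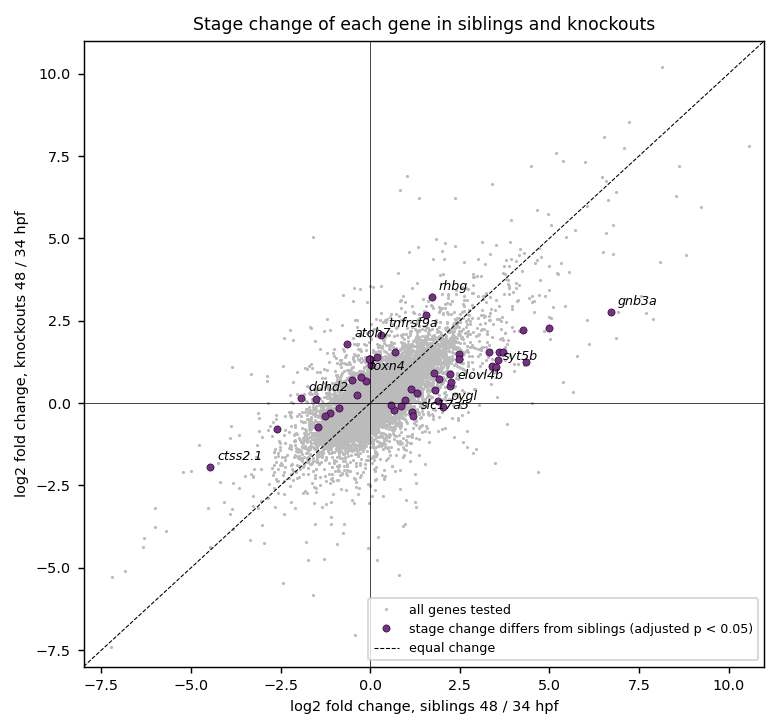
Log2 fold change from 34 to 48 hpf of each tested gene in siblings (x axis) and knockouts (y axis), with the line of equal change dashed and the 49 genes whose stage change differed in purple. The cloud lies along the line (r = 0.76), atoh7 (1.78 in knockouts, -0.63 in siblings) stands above it and gnb3a (2.77 in knockouts, 6.72 in siblings) below.

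The test of the difference between the genotypes' stage changes called 49 genes (0.203%). In 21 (0.0872%) the change was more positive in knockouts and in 28 (0.116%) more negative. The difference exceeded 2-fold in 0.0581% of all genes upward and 0.0872% downward. Unadjusted p-values lay below 0.05 for 1777 genes. The counts moved with single libraries. Without replicate 4 of knockout 34 hpf they were 62 and 51, and without replicate 3 of knockout 48 hpf or of sibling 48 hpf 13 and 11. The lower count was 16 without replicate 3 of knockout 34 hpf or replicate 4 of knockout 48 hpf, and 17 and 10 without sibling 48 hpf replicates 1 and 2. Without replicate 3 of sibling 34 hpf the counts were 13 and 18.

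Retinal neurogenesis genes were among the 21. The proneural gene atoh7, which starts retinal ganglion cell formation, stood at 2.94, 5.62, 4.31 and 6.56 CPM in knockouts at 34 hpf and at 13.1, 17.0, 19.8 and 16.9 CPM at 48 hpf. In siblings its mean went down from 15.6 to 10 CPM. The knockout log2 fold change of 1.78 ± 0.21 and the sibling one of -0.63 differed by 2.42 ± 0.29 (edgeR adjusted p = 0.000918), and the call held in each of the 16 fits with a library left out. The factor gene foxn4, of horizontal and amacrine cell progenitors, rose from 31.4, 31.9, 33.0 and 28.7 CPM to 53.7, 51.3, 54.6 and 55.0 CPM. Sibling means were 42.5 and 35.8 CPM, and the difference was 1.02 ± 0.14 (edgeR adjusted p = 0.00295), again called in all 16 fits.

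Other genes had a more negative stage change in knockouts, though none of the 53 listed neuronal and synaptic genes was called in the difference. Of these 53, 15 had an unadjusted edgeR p below 0.05, all 15 more negative in knockouts. Among all 24084 genes 1777 had such a p in either direction. The median difference of the 53 was -0.24. The synaptic vesicle calcium sensor gene syt5b stood at 3.70, 3.58, 3.76 and 4.38 CPM and then at 8.10, 10.1, 7.18 and 7.70 CPM, while sibling means went from 1.43 to 16.2 CPM. Those log2 fold changes of 1.1 and 3.5 differed by -2.4 ± 0.26 (edgeR adjusted p = 0.000685) in all 16 fits. The retinal paired-box gene pax10, the vesicle fusion genes stxbp1b and STX3, the ganglion cell RNA-binding protein gene rbpms2a, the RNA-binding protein gene pcbp3 and the factor gene prox1a rose in both genotypes, with differences of -2.06, -2.06, -1.78, -0.86, -0.98 and -0.72. The genes rx3 and tfap2c were not called in knockouts (-0.27 and -0.06). Together with sagb, rcvrn2, rlbp1a, rx3, tfap2c and purg, at -2.27, -1.82, -1.17, -1.44, -0.65 and -1.35, the 6 genes from pax10 to prox1a lost their calls without replicate 3 of knockout 48 hpf and without replicate 3 of sibling 48 hpf, with adjusted p up to 0.128 over the omissions. Of these, rlbp1a, purg and rx3 were also not called with knockout and sibling libraries of the same number blocked within a stage (edgeR adjusted p = 0.0902, 0.0698 and 0.0723). The beta transducin gene gnb3a, singled out after its values were seen, rose from 0.30 ± 0.22 to 2.00 ± 0.87 CPM in knockouts and from 0.30 to 31.5 CPM in siblings, the largest difference at -3.94 ± 0.58, or -3.34 without replicate 2 of knockout 34 hpf, with adjusted p = 0.134 in limma-voom. Its own rise in knockouts was 2.77, or 3.41 without that replicate.

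**Figure D5:**
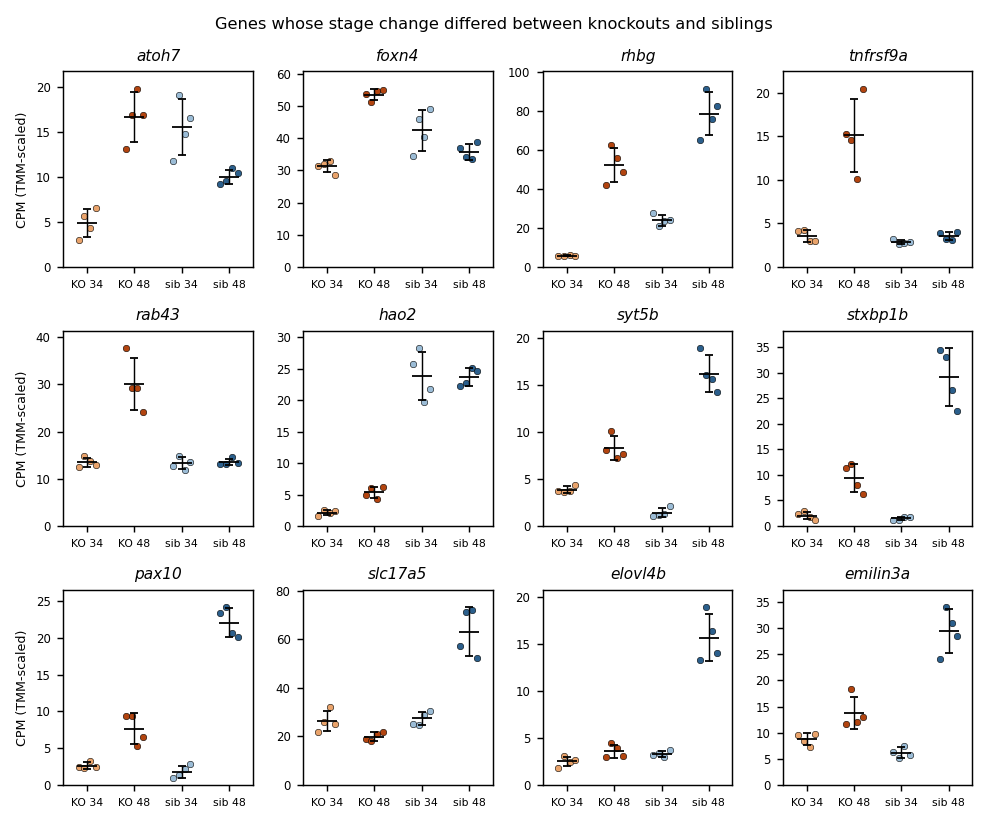
TMM-scaled CPM of 12 genes whose stage change differed between genotypes, 1 point per library with the mean ± SD of 4 as the black marks. The retinal gene atoh7 rose in knockouts (2.94 to 6.56 CPM, then 13.1 to 19.8 CPM) while its sibling mean fell from 15.6 to 10 CPM, and syt5b, stxbp1b and pax10 rose less in knockouts than in siblings.

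Other genes rose in knockouts with little or no change in siblings. The receptor gene tnfrsf9a, of the tumour necrosis factor receptor family, stood at 4.13, 4.23, 3.01 and 2.93 CPM and then at 15.3, 14.5, 10.1 and 20.4 CPM. Sibling means were 2.87 and 3.56 CPM, and the difference was 1.77 ± 0.27 (edgeR adjusted p = 0.00768). The vesicle transport GTPase gene rab43 went from 13.5 ± 1.01 to 30.1 ± 5.56 CPM and tmem41ab from 3.28 ± 0.40 to 8.30 ± 1.28 CPM (SD, n = 4), with sibling log2 fold changes of 0.03 and -0.03. Sibling means of tmem41ab were 5.65 and 5.52 CPM, so knockouts stood below siblings at 34 hpf and above them at 48 hpf. The calls of tnfrsf9a, rab43 and tmem41ab held in all 16 fits, and limma-voom gave tnfrsf9a adjusted p = 0.0609.

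A further set rose from levels below those of siblings at 34 hpf. The peroxisomal oxidase gene hao2 stood at 1.61, 2.47, 2.01 and 2.3 CPM and then at 4.87, 5.99, 4.33 and 6.15 CPM, below sibling means of 23.9 and 23.7 CPM at both stages. For mansc1 the knockout means were 4.72 and 12.5 CPM and the sibling means 26.6 and 30.5 CPM. The ammonia transporter gene rhbg, described above, stood at 24.0 and 78.7 CPM in siblings, so its log2 fold change of 3.21 exceeded the sibling 1.72 by 1.5 ± 0.18 (edgeR adjusted p = 0.000918). The differences for hao2 and mansc1 were 1.36 ± 0.21 and 1.21 ± 0.17, and all 3 were called in all 16 fits.

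Several genes changed in siblings and barely in knockouts. The lysosomal sialic acid transporter gene slc17a5 stood at 21.9, 26.0, 32.0 and 25.2 CPM and then at 18.9, 17.9, 21.0 and 21.9 CPM in knockouts. Sibling means rose from 27.4 to 63.2 CPM, and the difference was -1.6 ± 0.18 (edgeR adjusted p = 0.000767). Its own fall in knockouts, -0.40 ± 0.13, was lost in 4 of 8 fits with a knockout library left out (-0.29 to -0.39). The very-long-chain fatty acid elongase gene elovl4b had means of 2.52 and 3.6 CPM in knockouts and 3.35 and 15.7 CPM in siblings, a difference of -1.71 ± 0.25, and its rise in knockouts was also lost in 4 of the 8 (0.40 to 0.51). The matrix gene emilin3a rose by 0.65 ± 0.16 in knockouts and 2.25 in siblings, and the nuclear receptor gene rorab by 1.31 in siblings with 0.31 ± 0.11 in knockouts (edgeR adjusted p = 0.0509, or 0.0156 without replicate 3 of 48 hpf).

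The glycogen phosphorylase gene pygl and the lipase gene ddhd2, singled out after their values were seen, were not called in knockouts. For pygl the knockout means were 6.11 ± 0.54 and 5.59 ± 0.82 CPM and the sibling means 8.61 and 35.2 CPM, the smallest adjusted p of the difference at 0.000208 (edgeR). For ddhd2 the means were 4.89 ± 1.4 and 5.41 ± 0.66 CPM in knockouts and 26.6 and 6.96 CPM in siblings. The kidney and gut cadherin gene cdh17 and the proneural gene atoh1b fell less in knockouts than in siblings, by 0.30 against 1.11 and by 0.73 against 1.46 on the log2 scale. For atoh1b the adjusted p of the difference reached 0.0498 (edgeR) over the 16 fits with a library left out. The lysosomal genes ctss2.1 and plbd1 and the gene pbxip1a differed by 2.51, 0.85 and 1.2, and lost their calls with the same-stage block (edgeR adjusted p = 0.0719, 0.0723 and 0.0587) and in 10 to 12 of the 16 fits, replicate 3 of knockout and of sibling 48 hpf among those left out.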

How the data were processed

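RNA of whole zebrafish embryos was extracted with TRIzol and made into libraries with a VAHTS Universal V8 kit, per the labels' protocols. The authors deposited raw read counts per gene symbol. The submitters' processing notes name FastQC 0.12.1, Trim Galore 0.6.10, STAR 2.7.10b, featureCounts 2.0.6 and the GRCz11 build. The strand setting, the treatment of reads that match several places and the gene annotation were not given in the sources used here, so overlapping genes and near-identical copies are uncertain. Groups follow the genotype and stage labels.

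The counts of all 16 libraries were fitted in 1 model of 4 groups with edgeR 4.0.16 (filterByExpr, TMM scaling, quasi-likelihood test) in R 4.3.3, so all groups share the estimate of the spread. A gene was called where its adjusted p (Benjamini-Hochberg, 24084 genes) was under 0.05. The difference of stage changes is knockout minus sibling. The procedure was tested on simulated data. Alternatives were limma-voom (limma 3.58.1), DESeq2 1.42.0, other scalings and filters, a replicate block, a test against a 1.5-fold change, the compared libraries alone and each library left out. Figures were drawn with matplotlib 3.10.9.

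The gene lists, the members and the named genes were chosen with earlier results of these data known. The named genes were drawn from the following sets, and not every list member that qualified is named. The sets were the targeted genes and hnf4g, and the 15 largest rises and 15 largest falls. Those rises and falls were required to have no overlap between libraries and an average log2 CPM of at least 1. Absence of overlap is therefore not a finding for them. The other sets were the 12 largest differences each way among genes also called in knockouts, the 4 members of each list with the smallest p, and list members called in the difference. Genes said to be named or singled out after their values were seen lie outside these sets. Knockout and sibling libraries of the same number and stage deviated from their group means together, with correlations of 0.156 to 0.27 at 34 hpf and 0.162 to 0.425 at 48 hpf, so a fit with that block is given where it changes a call.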

Additional observations from a re-analysis of the deposited data

Results flagged for a closer look

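Among 374 sets of 4 knockout values, 19 had a highest or lowest library far from the other 3 by Dixon's criterion, and chance alone marks about 1 in 20. At 34 hpf replicate 4 stood apart for col10a1a (0.0547 CPM), crygm2d15 (5.28 CPM), afp4 (389 CPM), tnnt2c (220 CPM), isl1 (29.1 CPM), apoda.1 (6.34 CPM) and apoa4b.1 (149 CPM). Replicate 1 of that stage stood apart for cdc6 (39.6 CPM), replicate 2 for otx5 (1.76 CPM) and gnb3a (0.625 CPM), and replicate 3 for pax10 (3.33 CPM). At 48 hpf replicate 1 stood apart for il1b (23.5 CPM), mmp13a (95.4 CPM), ctslb (34.7 CPM), ncapd2 (84.5 CPM) and cyp4t8 (0.975 CPM). Replicate 2 of 48 hpf stood apart for col10a1a (28.0 CPM) and the lens share of counts (0.829%), and replicate 4 for hbbe2 (8.10 CPM).

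The stage change differed between knockouts and siblings by the test of the difference for 33 genes described above. On the log2 scale, knockout minus sibling, it was more positive for ctss2.1 (2.51), atoh7 (2.42), ddhd2 (2.08), tnfrsf9a (1.77), rhbg (1.5), tmem41ab (1.37), hao2 (1.36), mansc1 (1.21), pbxip1a (1.2), rab43 (1.13), foxn4 (1.02), plbd1 (0.85), cdh17 (0.82) and atoh1b (0.73). It was more negative for gnb3a (-3.94), syt5b (-2.4), sagb (-2.27), pygl (-2.16), pax10 (-2.06), stxbp1b (-2.06), rcvrn2 (-1.82), STX3 (-1.78), elovl4b (-1.71) and slc17a5 (-1.6). The same held for emilin3a (-1.59), rx3 (-1.44), purg (-1.35), rlbp1a (-1.17), rorab (-1), pcbp3 (-0.98), rbpms2a (-0.86), prox1a (-0.72) and tfap2c (-0.65). Of the 33 calls, 18 were kept in all 16 fits with a library left out.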

How the results depend on the processing

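On the 8 knockout libraries alone 2753 genes rose, in place of 3745, and 1705 fell, in place of 2921. On the 8 sibling libraries alone 5307 rose and 4564 fell, in place of 4400 and 3771. Against a 1.5-fold change, 1210 rose and 289 fell in knockouts, 1900 and 574 in siblings, and 3 and 7 differed. For the difference limma-voom gave 18 lower, and DESeq2 gave 79 higher and 99 lower. With single libraries left out, counts ranged from 3323 to 3798 (knockouts, higher), 2238 to 3168 (knockouts, lower), 3960 to 4232 (siblings, higher), 2878 to 3324 (siblings, lower), and 13 to 62 higher and 10 to 51 lower in the difference. Same-numbered knockout libraries of the 2 stages had correlations of 0.109, 0.15, -0.210 and 0.173, and since 1 was not above 0.1 they were not taken as pairs. A replicate block gave 3590 and 2657 in knockouts, 4225 and 3710 in siblings, and 17 and 19 in the difference. With it 5 globin and haem genes rose in place of 1, and apoa1b (-1.67, edgeR adjusted p = 0.0922) and the difference of atoh1b (edgeR adjusted p = 0.089) were among the named genes not called. The block within a stage, added after seeing the data, gave 24 and 29 and changed no call of the 33 named genes other than the 6 given above. For named genes, 3145 knockout values under the alternatives kept direction and call, 84 lost the call and 3 gained it. The reversed value was apoa4b.1, at 0.70 without replicate 4 of 34 hpf, with the other omissions reaching -7.53. For the difference 678 were kept and 180 lost. In the main fit all 16 libraries share 1 estimate of the spread. The distance between libraries of a group was measured as a chi-square against counting noise, averaged over genes. It was 28.05 to 121.1 for knockouts at 34 hpf and 22.45 to 51.13 at 48 hpf. For siblings it was 7.802 to 31.99 and 7.924 to 25.82. Why the counts moved under an alternative was not tested. Counts of a few reads, as for col10a1a at 34 hpf, limit the size of a fold change.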
